A study of Homo sapiens with 17 samples.

Results

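The miR-181 family comprises 6 microRNA hairpins in 3 clusters: MIR181A1 with MIR181B1 on chromosome 1, MIR181A2 with MIR181B2 on chromosome 9, and MIR181C with MIR181D on chromosome 19. Members were all small RNA alignments of 18 to 26 nt inside the hg19 windows of these hairpins, which gave 124 of the 5933012 distinct alignments of that length in the series. The material was K562, a human erythroleukemia line, and all cultures, controls included, carried an shRNA against Drosha that doxycycline (Dox) switches on. Cultures had received 1 µg/mL Dox or water for 3, 13 or 31 d. There were 8 Dox libraries, 8 water libraries and 1 untreated library, the last not analysed here. The labels do not state whether the line was 1 clone.

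Each of 8 tables paired the Dox with the water library of one day and number, as replicates 1 and 3 at 3 d and replicates 1, 2 and 3 at 13 d and at 31 d. The labels call these independent biological replicates. The authors deposited, for each alignment, the ratio of one scaled library value to the other. No source says which of them is on top, so every value below is numerator over denominator and carries no Dox direction, and all 8 tables are assumed to run alike. The level of Drosha itself was not analysed here. The tables listed 871027 to 3428554 alignments each, depth per library is unknown, and a change in RNA per cell cannot be told apart from a change in the share of cells that hold it.

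As background, Drosha cuts the hairpin out of a long primary transcript in the nucleus, and Dicer then removes the loop and leaves a short duplex with a 5p and a 3p strand. One strand usually stays in an Argonaute protein and finds its targets through the seed, bases 2 to 8, while the other is often degraded. In mice miR-181a is known for tuning the sensitivity of developing T cells to antigen, and the family is expressed in several blood lineages. In RefSeq on GRCh38, MIR181A1 and MIR181B1 lie within the noncoding gene MIR181A1HG, MIR181A2 and MIR181B2 within MIR181A2HG and the gene of the nuclear receptor NR6A1, and MIR181C and MIR181D within the bounds of NANOS3.

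The mature sequences are shown because the arms share seeds and because 2 of them are made by 2 hairpins each. Letters are from RefSeq (GRCh38.p14), with the seed in capitals:
hsa-miR-181a-5p: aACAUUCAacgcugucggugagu
hsa-miR-181b-5p: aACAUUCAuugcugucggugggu
hsa-miR-181c-5p: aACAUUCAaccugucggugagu
hsa-miR-181d-5p: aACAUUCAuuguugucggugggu
hsa-miR-181a-3p: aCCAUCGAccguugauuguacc
hsa-miR-181a-2-3p: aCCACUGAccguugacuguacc
hsa-miR-181b-3p: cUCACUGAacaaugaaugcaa
hsa-miR-181b-2-3p: cUCACUGAucaaugaaugca
hsa-miR-181c-3p: aACCAUCGaccguugaguggac
hsa-miR-181d-3p: cCACCGGGggaugaaugucac

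The 4 distinct 5p sequences began with the same 8 bases and had 1 common seed. Counted from 1 at the 5′ end, miR-181b-5p differed from miR-181a-5p by A9U, C10U and A21G, and miR-181d-5p differed from miR-181b-5p by C12U alone. The 6 distinct 3p sequences had 5 seeds, of which 1 was shared, by miR-181b-3p and miR-181b-2-3p. Since miR-181a-5p is identical in MIR181A1 and MIR181A2, and miR-181b-5p in MIR181B1 and MIR181B2, reads of these arms cannot be assigned to 1 of the 2 hairpins, and the rule by which such reads were placed is not known here.

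Of the 124 alignments, 26 had a ratio above 0 in all 8 tables, and they came from 7 of the 12 arms. The others were MIR181A1 3p, MIR181B1 3p, MIR181B2 3p, MIR181C 5p and MIR181D 3p. In the hairpins with a RefSeq hairpin sequence, 21 of 23 such alignments began exactly at the annotated 5′ end of the arm. The exceptions were both alignments of MIR181C 3p, described further on. Arms with at least 3 such alignments at 1 common 5′ end were called stacks and tested: MIR181A1 5p and MIR181A2 5p with 5 alignments each, MIR181A2 3p and MIR181B2 5p with 3 each, and MIR181D 5p with 6. MIR181B1 5p and MIR181C 3p had 2 each and have values but no test among stacks. MIR181A1 5p and MIR181A2 5p have 1 mature sequence and share reads, so counts over the 5 stacks are not counts of independent RNAs. An arm's value in a table was the median over its alignments, as log2 ratio. Stacks were tested with limma together with all 1078 stacks of the genome, with Benjamini-Hochberg adjusted p-values and a threshold of 0.05. Each SE given with a limma p is limma's, from 1 spread shared by all days and moderated across stacks. The n beside it is the number of tables in the mean, and the SE is not the scatter of those tables alone. Requiring a ratio above 0 in all 8 tables leaves out alignments with no numerator read in 1 or more tables. It also leaves out alignments that 1 or more tables do not list. Counts over the stacks that passed this filter therefore do not stand for all members.

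All 7 measurable arms had log2 ratios above 0 in both 3 d tables and below 0 in all 3 tables of 13 d. At 31 d the exception was MIR181C 3p, above 0 in 2 of 3 tables. The tables were shifted against each other: over all 1078 stacks the 3 d tables had medians of 0.70 and 1.67, those of 13 d 0.53, -0.23 and -1.24, and those of 31 d -0.11, -1.26 and -0.72. Set against these medians, the 7 arms did not stand on one side at 3 d, where 4 of 7 were below the median in replicate 1 and 0 of 7 in replicate 3. At 13 d, 7, 7 and 6 of 7 arms were below it, and at 31 d 7, 6 and 6.

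**Figure D1:**
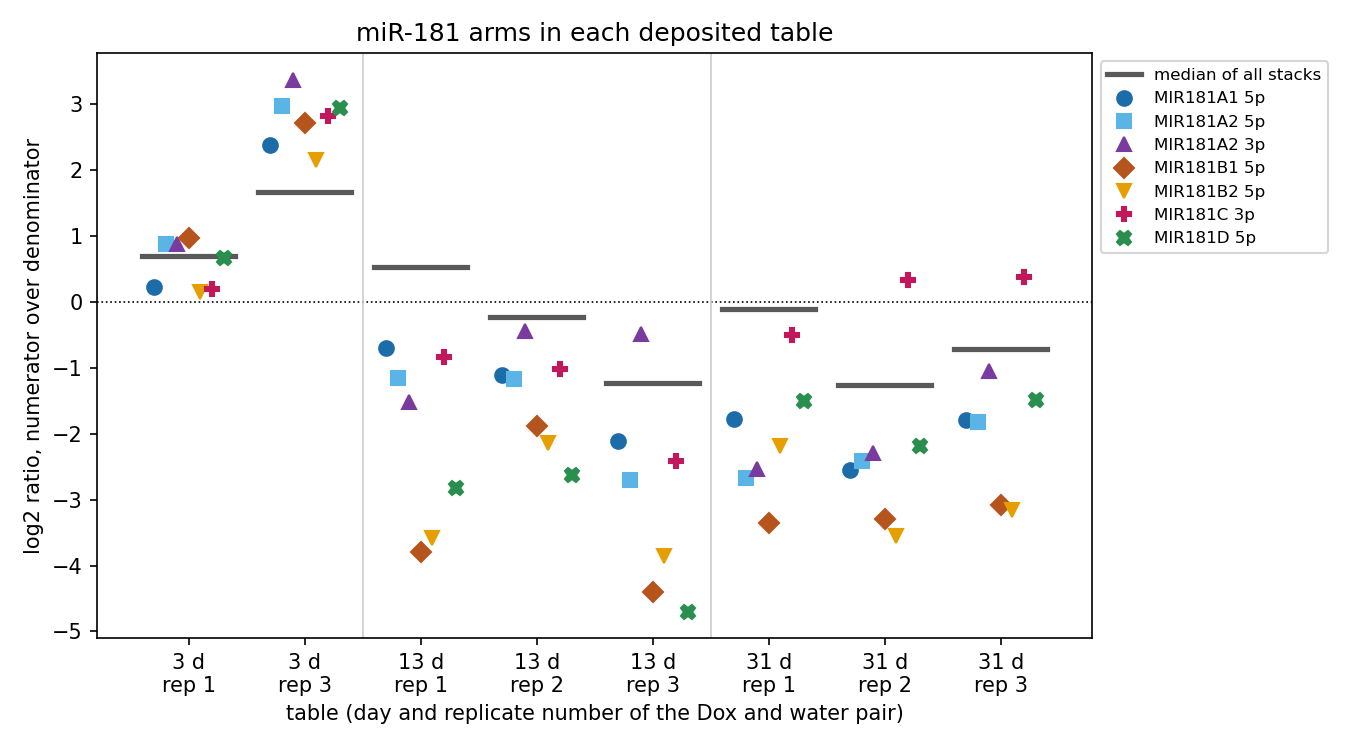
Each column is 1 table, from 3 d to 31 d, the vertical axis is the log2 of the deposited ratio (numerator over denominator), each symbol is the median over the alignments of 1 arm, and the grey bar is the median of all 1078 stacks. At 13 d and 31 d both miR-181b-5p arms lie between -1.89 and -4.40, while MIR181C 3p reaches 0.33 and 0.38 in 2 tables of 31 d.

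At 3 d the ratios lay above 1, and 1 of the 5 tested stacks, MIR181A2 3p, passed toward higher values, against 22.5% of all stacks called higher and 3.8% called lower. That balance turned round once each table was centred on its own median over all stacks, with 0 of 5 members called, 5.57% of all stacks higher and 19.6% lower. Without 3 d replicate 3 it shrank to 2.69% higher and 1.3% lower, again with 0 of 5 members called. MIR181A2 3p had log2 ratios of 0.88 in replicate 1 and 3.38 in replicate 3, and a fitted mean of 2.13 ± 0.74 (SE, limma adjusted p = 0.042). Its value was 0.94 with tables centred (limma adjusted p = 0.396), and without replicate 3 it was 0.88 (limma adjusted p = 0.556). The call was also lost without 13 d replicate 2 (limma adjusted p = 0.056) or 31 d replicate 3 (limma adjusted p = 0.060). The other 4 stacks had fitted means of 1.15 to 1.93 and did not pass. The 7 arms lay between 0.15 and 0.97 in replicate 1 and between 2.15 and 3.38 in replicate 3, with no overlap between the 2 tables of this day. With a replicate block across days the adjusted limma p of MIR181A2 3p was 0.066.

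At 13 d, 3 of the 5 tested stacks passed and all 3 were lower, against 29% of all 1078 stacks called lower and 12.4% higher. With each table centred, 3 of 5 passed as lower, against 28.9% of all stacks lower and 21.7% higher. MIR181D 5p, the source of miR-181d-5p, had log2 ratios of -2.82, -2.62 and -4.70 in the 3 tables, with a mean of -3.38 ± 0.61 (SE, n = 3 tables, limma adjusted p = 0.00024). In the authors' deposited tables its annotated 23 nt alignment, at chr19:13985724-13985746 on the plus strand, had ratios of 0.186, 0.150 and 0.0414. The 13 d values did not overlap those of 3 d, where the same alignment had ratios of 2.35 and 9.15.

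MIR181B2 5p, one of the sources of miR-181b-5p, had -3.59, -2.14 and -3.86 at 13 d, with a mean of -3.20 ± 0.60 (SE, n = 3 tables, limma adjusted p = 0.00031). MIR181A2 5p, a source of miR-181a-5p, had -1.15, -1.16 and -2.71, with a mean of -1.67 ± 0.59 (limma adjusted p = 0.028). The call of MIR181D 5p and that of MIR181B2 5p each remained past the threshold when any 1 of the 8 tables was left out. That of MIR181A2 5p did not pass without 13 d replicate 2 (-1.93, limma adjusted p = 0.064), without 13 d replicate 3 (-1.16, limma adjusted p = 0.194) or with tables centred by alignment length (-1.01, limma adjusted p = 0.065). MIR181A1 5p had -0.69, -1.11 and -2.11, with a mean of -1.30 ± 0.58 (limma adjusted p = 0.082), and passed without 3 d replicate 3 (limma adjusted p = 0.047). MIR181A2 3p, the strand opposite miR-181a-5p, had -1.52, -0.44 and -0.48, with a mean of -0.82 ± 0.60 (limma adjusted p = 0.30).

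At 31 d all 5 tested stacks passed toward lower ratios, against 27.7% of all stacks called lower and 8.26% higher. MIR181A1 5p and MIR181A2 5p share reads, so these 5 calls are not independent. With each table centred, 3 of 5 passed as lower, against 21.6% of all stacks lower and 20.4% higher. MIR181B2 5p had log2 ratios of -2.18, -3.56 and -3.16 in replicates 1, 2 and 3, with a mean of -2.97 ± 0.60 (SE, n = 3 tables, limma adjusted p = 0.00085). MIR181A2 5p had -2.67, -2.41 and -1.83, with a mean of -2.30 ± 0.59 (limma adjusted p = 0.0049). These 2 calls remained past the threshold when any 1 table was left out and when each table was centred. With tables centred by alignment length MIR181B2 5p alone passed at 31 d, against 21.4% of all stacks called lower, and MIR181A2 5p had -1.12 (limma adjusted p = 0.052).

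The other 3 calls at 31 d were each lost when a single table of that day was left out. MIR181A1 5p had -1.78, -2.55 and -1.79, with a mean of -2.04 ± 0.58 (SE, n = 3 tables, limma adjusted p = 0.0098), and did not pass without replicate 2 (limma adjusted p = 0.093) or replicate 3 (limma adjusted p = 0.051). MIR181A2 3p had -2.54, -2.29 and -1.05, with a mean of -1.96 ± 0.60 (limma adjusted p = 0.016), and did not pass without replicate 1 (limma adjusted p = 0.092), without replicate 2 (limma adjusted p = 0.102) or when each table was centred (limma adjusted p = 0.103). MIR181D 5p had -1.50, -2.18 and -1.49, with a mean of -1.72 ± 0.61 (limma adjusted p = 0.034). It did not pass without replicate 1 (limma adjusted p = 0.064), replicate 2 (limma adjusted p = 0.196) or replicate 3 (limma adjusted p = 0.107), nor when centred (limma adjusted p = 0.080).

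When stacks of a single alignment were admitted, 6439 stacks were tested and MIR181B1 5p and MIR181C 3p could be added. MIR181B1 5p, the other source of miR-181b-5p, had log2 ratios of -3.79, -1.89 and -4.40 at 13 d and -3.35, -3.29 and -3.08 at 31 d. Its means, -3.36 ± 0.68 (SE, n = 3 tables, limma adjusted p = 0.0021) and -3.24 ± 0.68 (limma adjusted p = 0.0046), both passed. In that fit 3 of 7 member stacks were lower at 13 d, against 20.7% of all, and 4 of 7 at 31 d, against 17.1%. The 7 hold MIR181B1 5p beside MIR181B2 5p and MIR181A1 5p beside MIR181A2 5p, which share reads, so these counts are not of independent RNAs.

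Between days, 13 d minus 3 d was negative for all 5 tested stacks and past the threshold for all 5, against 37% of all stacks called lower and 5.38% higher. It was -5.19 ± 0.97 (SE, limma adjusted p = 0.00035) for MIR181D 5p and -4.35 ± 0.95 (limma adjusted p = 0.0012) for MIR181B2 5p. The difference was -3.60 for MIR181A2 5p, -2.95 for MIR181A2 3p and -2.62 for MIR181A1 5p, the last with a limma adjusted p of 0.028, or 0.0504 with a replicate block. For 31 d minus 3 d the 5 differences ran from -4.23 to -3.35 and all 5 passed, against 37.4% of all stacks called lower and 5.84% higher. With each table centred, 3 of 5 passed for 13 d minus 3 d (MIR181D 5p, MIR181B2 5p and MIR181A2 5p), against 26.5% of all stacks lower and 28.8% higher. For 31 d minus 3 d, 2 of 5 passed with tables centred (MIR181B2 5p and MIR181A2 5p), against 19.3% lower and 23% higher. Without 3 d replicate 3, MIR181D 5p and MIR181B2 5p passed for 13 d minus 3 d, against 20.8% of all stacks called lower. For 31 d minus 3 d MIR181A2 5p and MIR181B2 5p then passed, against 21.8%. With tables centred by alignment length, 2 of 5 passed for 13 d minus 3 d, against 26.2% called lower, and 0 of 5 for 31 d minus 3 d, against 20.3%. Between 31 d and 13 d limma called 0 of the 5 stacks and 0% of all stacks, with 116 of 1078 at an unadjusted p below 0.05. MIR181D 5p had a difference of 1.66 ± 0.86 (SE, limma adjusted p = 0.49), the largest in size of the 5, with the 3 values of 31 d all above the 3 of 13 d.

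Arms were then compared within tables, which removes any shift of a whole table. The 2 hairpins of a cluster can come from 1 primary transcript, and 2 of the 3 pairs set the 5p arms of cluster neighbours against each other. Reads of miR-181a-5p and of miR-181b-5p cannot be assigned to 1 hairpin each. These pairs therefore compare the 2 sequences and cannot decide whether the neighbours of 1 cluster differ. The pair of MIR181A2 3p and MIR181A2 5p has the same limit, as reads of its 5p arm may come from MIR181A1. MIR181B2 5p lay below its cluster neighbour MIR181A2 5p, with a mean difference of -1.01 ± 0.81 (SD, n = 8 tables), and was lower in 7 of 8 tables (exact two-sided sign-flip permutation p = 0.0156, adjusted p = 0.0469 over 3 pairs). MIR181B1 5p minus MIR181A1 5p averaged -1.09 ± 1.27 (SD, n = 8 tables), lower in 6 of 8 (exact permutation p = 0.0469, adjusted p = 0.0703). The 6 tables in which MIR181B1 5p was lower were those of 13 d and 31 d, and in both 3 d tables it was higher, by 0.73 and 0.33. Since the 5p arms of the 2 clusters have the same sequences, these 2 pairs share reads and are not independent of each other. MIR181A2 3p minus the 5p arm of the same hairpin averaged 0.50 ± 0.79 (SD, n = 8 tables), with 1 table at 2.22, and was higher in 6 of 8 tables, equal in 1 and lower in 1 (exact permutation p = 0.0781, adjusted p = 0.0781). This difference was 0.25 without 13 d replicate 3, the table at 2.22, and 0.23 on the annotated alignments alone. Without 13 d replicate 1 it was 0.62 and passed (exact permutation p = 0.0312, adjusted p = 0.0469).

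The pair that passed did so by a small margin. With any 1 of 13 d replicate 2, 13 d replicate 3, 31 d replicate 2 or 31 d replicate 3 left out, MIR181B2 5p minus MIR181A2 5p was between -1.02 and -0.97 and its adjusted exact permutation p was 0.0938. On the annotated 23 nt alignments alone the difference was -1.57 ± 1.14 (SD, n = 8 tables, exact permutation p = 0.00781, adjusted p = 0.0234). In the authors' deposited tables these alignments had ratios of 0.0309, 0.109 and 0.0263 for MIR181B2 and 0.451, 0.380 and 0.153 for MIR181A2 at 13 d.

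**Figure D2:**
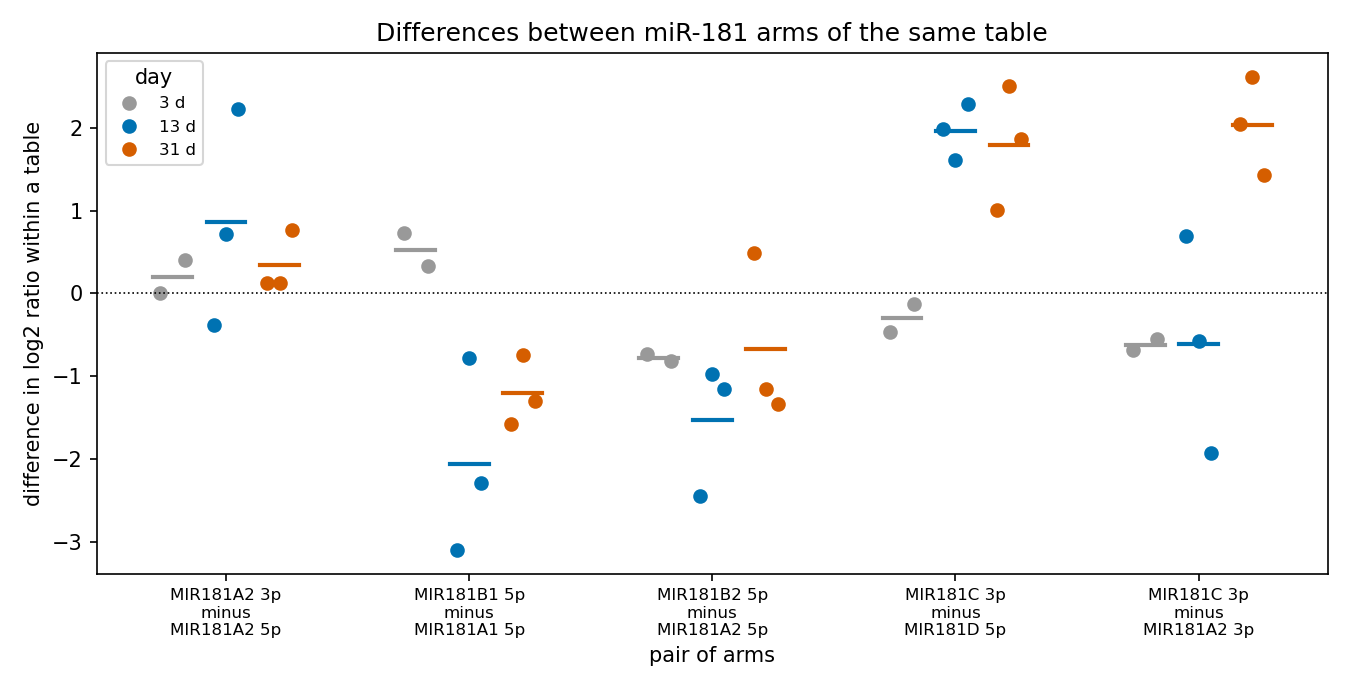
Each point is the difference in log2 ratio between 2 arms of the same table, grouped by pair and coloured by day, and each bar is the mean of a day. The difference of MIR181B2 5p from MIR181A2 5p is below 0 in 7 of 8 tables, and MIR181C 3p lies above MIR181D 5p by 1.00 to 2.51 in the 6 tables of 13 d and 31 d.

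MIR181C 3p departed from the other arms in both position and value. The hairpin is shown with the annotated arms in capitals, beside that of MIR181A2, the other hairpin with a measurable 3p arm (RefSeq, GRCh38.p14):
MIR181C: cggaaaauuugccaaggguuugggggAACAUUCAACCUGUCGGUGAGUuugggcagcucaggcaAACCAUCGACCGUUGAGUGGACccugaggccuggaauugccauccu
MIR181A2: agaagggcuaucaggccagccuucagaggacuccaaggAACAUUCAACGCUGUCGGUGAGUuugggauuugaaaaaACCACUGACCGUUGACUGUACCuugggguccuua

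Both MIR181C 3p alignments above 0 in all 8 tables began at position 13985578 of chromosome 19, 1 nt after the annotated start at 13985577. Read from the hairpin with the seed of the shifted end in capitals, they are:
MIR181C 3p, 21 nt: aCCAUCGAccguugaguggac
MIR181C 3p, 22 nt: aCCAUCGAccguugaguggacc
The seed of this shifted end, CCAUCGA, is the annotated seed of miR-181a-3p, whereas the annotated miR-181c-3p has ACCAUCG. At the annotated start, 3 alignments were listed, and none had a ratio above 0 in more than 2 tables. Of the 9 distinct alignments of this arm, the other 6 began at 13985578. How many reads each end had is not given here, since the value columns behind the ratios were not used.

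The log2 ratio of MIR181C 3p was 0.20 and 2.83 in the 3 d tables, -0.83, -1.02 and -2.41 in those of 13 d, and -0.50, 0.33 and 0.38 in those of 31 d. At 13 d it lay among the miR-181a arms, and at 31 d it was the highest of the 7 arms in all 3 tables. In the fit that admits thin stacks its mean was -1.42 ± 0.69 (SE, n = 3 tables, limma adjusted p = 0.13) at 13 d and 0.07 ± 0.69 (limma adjusted p = 0.96) at 31 d, and the difference of 1.49 ± 0.97 between them did not pass (limma adjusted p = 0.47). In the authors' deposited tables its 22 nt alignment had ratios of 0.877, 1.51 and 1.37 at 31 d.

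Its cluster neighbour MIR181D 5p was lower than MIR181C 3p in every table of 13 d and 31 d. The difference, MIR181C 3p minus MIR181D 5p, was -0.30 ± 0.24 (SD, n = 2) at 3 d, 1.96 ± 0.34 (SD, n = 3) at 13 d and 1.79 ± 0.75 (SD, n = 3) at 31 d. Against the other 3p arm, MIR181C 3p minus MIR181A2 3p was -0.62 ± 0.10 (SD, n = 2) at 3 d, -0.60 ± 1.31 (SD, n = 3) at 13 d and 2.03 ± 0.59 (SD, n = 3) at 31 d. Both pairs were chosen after their values were seen and have no test. Their arms hold unlike sets of alignment lengths.

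MIR181C 5p, the strand opposite, had no alignment above 0 in all 8 tables, so the 2 arms could not be compared across the series. Its annotated 22 nt alignment was listed in 7 tables. At 31 d it had log2 ratios of -0.75, -1.97 and -1.64, each below MIR181C 3p in the same table, and at 13 d it had -1.35 in replicate 3 and a ratio of 0 in replicates 1 and 2. At 3 d it had 1.02 in replicate 3.

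The remaining 3p arms were mostly listed with a ratio of 0, which means that the numerator held no read. All 13 entries of MIR181B2 3p, over 6 tables, all 4 of MIR181D 3p, over 3 tables, and both of MIR181B1 3p, over 2 tables, were at 0. MIR181A1 3p was listed in 7 tables. In the tables where its annotated 22 nt alignment was above 0, the log2 ratio was 0.03 in 1 table of 3 d, 1.06 and -0.16 in tables of 13 d, and -1.34 and 3.04 in tables of 31 d, a range too wide to place it. All listed ratios of the miR-181 arms were finite numbers. Whether the tables leave out alignments with no read in the denominator was not checked, so reads held by the numerator alone may be unseen.

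Over all 12 arms, 164 of 546 listed entries were at 0. The 3 d tables had shares of 22.6% and 12.7%, those of 13 d had 34.5%, 29.0% and 41.8%, and those of 31 d had 28.4%, 38.1% and 25.9%. Every table of 13 d and 31 d thus had a higher share of zeros among miR-181 alignments than either table of 3 d. Over all alignments of 18 to 26 nt the share was far higher, 79.7% to 94.0%, and was highest in 3 d replicate 1.

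The identical sequences show how precisely a ratio was measured. For miR-181a-5p, 5 lengths were present at both MIR181A1 and MIR181A2, and the 40 differences between the loci at the same length and table averaged -0.06 with an SD of 1.24 log2 units, from -3.81 to 2.81. At the mature length of 23 nt the difference was at most 0.50 in size in any of 8 tables. For miR-181b-5p the difference between MIR181B1 and MIR181B2 reached 1.42 at 23 nt, its mature length, which is also the length of the annotated alignments compared between MIR181B2 5p and MIR181A2 5p. A pair of values for the same molecule could thus differ by more than 1 log2 unit in a table. Medians of the arms differed by 0.08 ± 0.55 (SD, n = 8 tables) for MIR181A1 5p minus MIR181A2 5p. For MIR181B1 5p minus MIR181B2 5p they differed by 0.008 ± 0.63 (SD, n = 8 tables). How much of these differences came from the placing of shared reads was not tested. Differences of more than 1 log2 unit between single alignments of other arms in 1 table should be read with caution too. Whether this spread carries over to arms that share no reads was not tested.

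**Figure D3:**
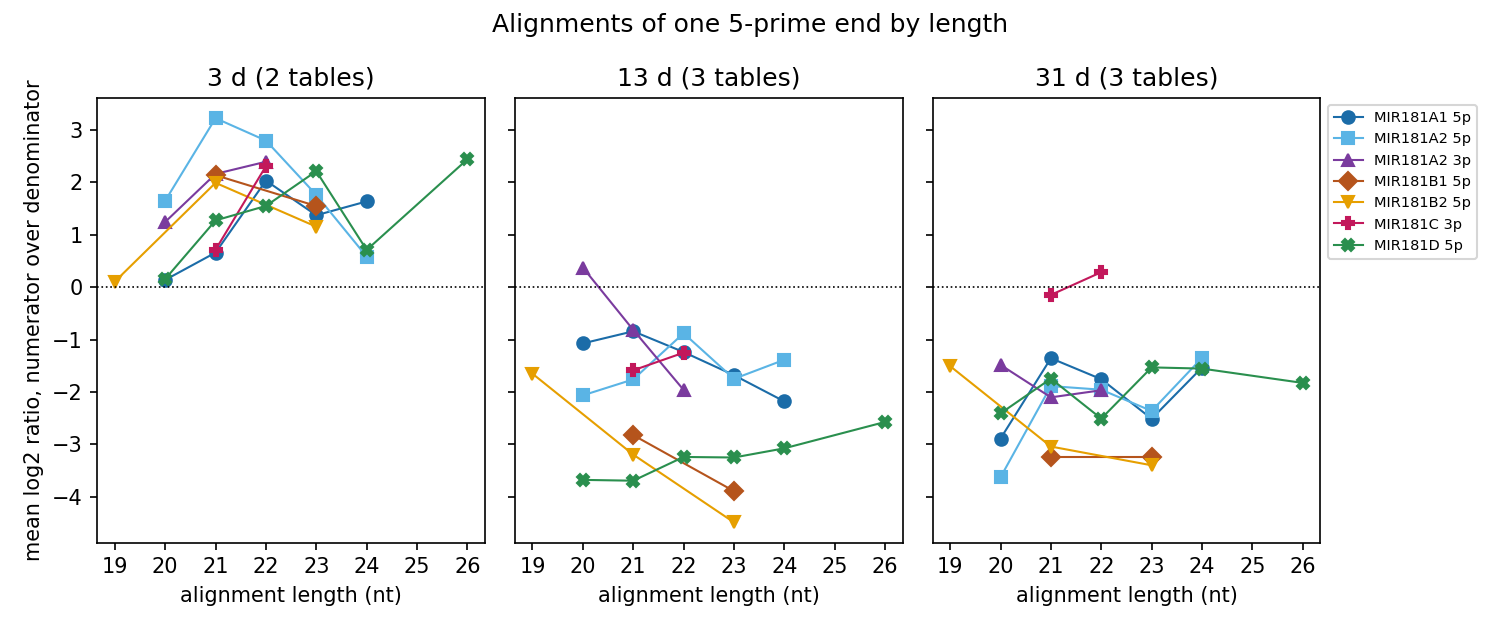
Each panel is 1 day, the horizontal axis is the alignment length in nt, the vertical axis is the mean log2 ratio over the tables of that day, and each line joins the alignments of 1 arm that share a 5′ end and are above 0 in all 8 tables. At 13 d every length of MIR181D 5p lies between -3.69 and -2.57, and at 31 d both lengths of MIR181C 3p, at -0.15 and 0.29, lie above all other points.

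Lengths of the same arm were on the same side of 0 at 13 d and 31 d with 2 exceptions. The 6 lengths of MIR181D 5p, from 20 to 26 nt, had means of -3.69 to -2.57 at 13 d and of -2.51 to -1.53 at 31 d. Those of MIR181A2 5p, from 20 to 24 nt, had -2.07 to -0.88 at 13 d and -3.63 to -1.35 at 31 d. One exception was MIR181C 3p at 31 d, whose 2 lengths lay close to 0 on either side. The other was the 20 nt alignment of MIR181A2 3p at 13 d, at 0.37 ± 1.16 (SD, n = 3 tables), where the annotated 22 nt alignment had -1.96 ± 0.69 (SD, n = 3 tables).

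The hairpins themselves differed in fold and loop. The predicted free energy (RNAfold) was -68.1 kcal/mol for MIR181D, -53.7 for MIR181A2, -45.2 for MIR181C, -35.9 for MIR181A1 and -33.2 for MIR181B1. MIR181D was also the longest, at 137 nt against 110 nt for the other 4, and had 20 nt between its arms, against 15 to 17 nt in the others and a median of 16 nt over 739 RefSeq hairpins with both arms. In the predicted folds 16 to 18 bases of each 5p arm paired with its 3p arm. No order of these features was set against the ratios, because identical arms share reads.

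Beside the family, 261 other stacks had a partner stack 30 to 48 nt away on the same strand, the spacing of the 2 arms of a hairpin. At 13 d the median log2 ratio was -1.67 for the 5 miR-181 stacks, -0.72 for these 261 and -0.20 for all 1078. At 31 d the medians were -2.04, -1.0 and -0.71, and at 3 d 1.81, 1.43 and 1.2. Of the 261, 36.4% were lower at 13 d and 31.0% at 31 d. The sets are not alike, since MIR181A2 was the only hairpin with both arms among the 5 miR-181 stacks. MIR181A1 5p and MIR181A2 5p also share reads. MIR181D 5p, the miR-181 stack with the most alignments, was the reference in a search for the most alike pattern over the 8 centred tables. The search took stacks elsewhere, of either kind, and left out some chromosomes. Within that search the most alike stack lay on chromosome X at 139006317 to 139006340, minus strand (Pearson r = 0.986). Next were stacks on chromosome 13 at 92003615 to 92003640, plus strand (r = 0.980), and on chromosome X at 133303570 to 133303595, minus strand (r = 0.968). Within the family the likeness to MIR181D 5p was r = 0.853 for MIR181B2 5p, 0.726 for MIR181A2 5p, 0.623 for MIR181A1 5p and 0.430 for MIR181A2 3p. All of these rest on 8 tables that share day and library pair. The stacks elsewhere are the highest of all those searched, whereas the family values are not selected. The r values therefore do not show that MIR181D 5p is more like other loci than like its family.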

How the data were processed

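Small RNA libraries, cut from a gel at 20 to 40 nt per the labels' protocols, were aligned with Bowtie2 2.2.9 to hg19 (GRCh37), per the submitters' processing notes. The value used was the ratio deposited by the authors for each alignment, which equals the quotient of 2 scaled values in the same row. Another 32 value columns, 4 a table, have no library named and were not used, so no depth or counting interval is given.

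Ratios were log2 transformed. Alignments of 18 to 26 nt that exceeded 0 in every table were joined into a stack where 3 or more had the same 5′ end, and the stack was valued at their median. All 1078 stacks were fitted in limma 3.58.1 (R 4.3.3) with 1 mean per day, robust empirical Bayes and Benjamini-Hochberg adjustment at 0.05. On simulated 13 d data of 1078 stacks, it recovered 0% of changes of log2 size 1. It recovered 54.4% of size 2 and 93.2% of size 4, and called 0% of unchanged stacks. The simulated noise was independent for each stack and table, with no shift of a whole table. The real tables were shifted against each other, so these rates do not carry over to the uncentred fit. Arms were compared within tables by exact sign-flip permutation. Positions are 1-based on hg19 and were not converted; mature sequences were placed by their offset in the RefSeq hairpin, and for MIR181B2 by the common 5′ end of its alignments. Folds used RNAfold 2.7.2. All 6 hairpins and both arms were named whatever their values, with the 3 stacks most like MIR181D 5p on the chromosomes searched. The members and lists were chosen with earlier results of these data known. Each ratio is formed within a Dox and water pair of one number, so the pairing lies in the values.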

Additional observations from a re-analysis of the deposited data

Results flagged for a closer look

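The 5 tested stacks had a different ratio at the later days than at 3 d by limma's test of the difference, on the log2 scale, where 37% of all stacks were called lower for 13 d minus 3 d and 37.4% for 31 d minus 3 d. For 13 d minus 3 d the differences were -2.62 for MIR181A1 5p, -3.60 for MIR181A2 5p, -2.95 for MIR181A2 3p, -4.35 for MIR181B2 5p and -5.19 for MIR181D 5p. For 31 d minus 3 d they were -3.35 for MIR181A1 5p, -4.23 for MIR181A2 5p, -4.09 for MIR181A2 3p, -4.12 for MIR181B2 5p and -3.53 for MIR181D 5p. The median of all stacks was 0.70 and 1.67 in the 3 d tables and at or below 0.53 in the later ones. With each table centred, the 13 d minus 3 d differences were -1.11 for MIR181A1 5p, -2.10 for MIR181A2 5p, -1.44 for MIR181A2 3p, -2.85 for MIR181B2 5p and -3.68 for MIR181D 5p, and 3 of 5 passed. The centred 31 d minus 3 d differences were -1.47 for MIR181A1 5p, -2.35 for MIR181A2 5p, -2.21 for MIR181A2 3p, -2.24 for MIR181B2 5p and -1.65 for MIR181D 5p, and 2 of 5 passed. Without 3 d replicate 3, 2 of 5 passed for each. With tables centred by alignment length, 2 of 5 passed for 13 d minus 3 d, against 26.2% of all stacks called lower. For 31 d minus 3 d 0 of 5 then passed, against 20.3%.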

How the results depend on the processing

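Counts are of the 5 tested stacks, or of 4 with 20 to 24 nt and 7 with single-alignment stacks, and the percent after a count is the share of all stacks called in that direction. The counted stacks include some of identical mature sequence that share reads. At 3 d, where 1 passed as higher (22.5%), the count was 0 with each table centred (5.57%), centred by alignment length (6.77%), with single-alignment stacks (28.3%), with the day's tables only (5.66%) and with the replicate block (13.3%). It was 2 with 20 to 24 nt (30.1%), with the mean (25.2%) and without both 13 d replicate 3 and 31 d replicate 2 (27.9%), an alternative chosen after seeing the data. Those 2 tables had the steepest trend of the ratio with alignment length. At 31 d, where 5 passed as lower (27.7%), it was 3 centred (21.6%), 1 centred by length (21.4%) and 2 without those 2 tables (18.1%). For 13 d minus 3 d, 5 passed (37%), 3 centred (26.5%) and 2 centred by length (26.2%); for 31 d minus 3 d, 5 passed (37.4%), 2 centred (19.3%) and 0 centred by length (20.3%). At 13 d all planned counts were within 1.5 times of 3, and for 31 d minus 13 d all were 0. Leaving out 1 table gave 0 to 3 at 3 d, 2 to 4 at 13 d, 2 to 5 at 31 d, 2 to 5 for 13 d minus 3 d, 2 to 5 for 31 d minus 3 d, 0 to 0 for 31 d minus 13 d and 0 to 2 for pairs of arms. On the 13 d and 31 d tables alone 0 of 3 pairs passed; with 6 tables the smallest two-sided exact permutation p is 0.03125, which MIR181B1 5p minus MIR181A1 5p reached (-1.63, lower in 6 of 6, adjusted p = 0.0938), so a single pair could not pass. The causes of these moves were not tested. The replicate block, with the replicate number as a term across days, moved no other count by over 1.5 times. Of 60 values of single arms under other settings, 10 moved by more than 1 SD and 0 turned the sign of a called value. Leaving out 1 table moved an arm's mean by 0.87 to 1.32 at 3 d and by at most 0.73 at 13 d and 31 d. With no depth, counting error could not be given. Changes of log2 size 1 were beyond the test in the simulation, which held no shift of a whole table.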
